A study of Homo sapiens with 16 samples.

Results

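The change in messenger RNA after 5-fluorouracil (5-FU) was compared between U2OS cells carrying MDM2 W329G and wild-type (WT) U2OS cells, gene by gene. U2OS is a human osteosarcoma line. The W329G cells were edited with CRISPR/Cas9 and are isogenic to the WT cells. The 4 groups were W329G cells with 5-FU, W329G cells with DMSO, WT cells with 5-FU and WT cells with DMSO, each with 4 poly-A RNA-seq libraries. 5-FU was given at 50 µM for 24 h, and DMSO, its solvent, for the same time. Each genotype was present as 2 sets of cells, numbered 1 and 2, and every set was treated in 2 experiments sequenced by different vendors, so that experiment 1 holds replicates 1 and 2 and experiment 2 replicates 3 and 4, cells 1 before cells 2. A 5-FU library and the DMSO library of the same cells and experiment form a pair, which gave 8 pairs from all 16 libraries of the series, 4 per genotype. Whether cells 1 and 2 are separately derived clones is not stated, and 4 pairs from 2 sets of cells are not 4 independent clones. The response of a pair is its log2 CPM (counts scaled to the size of the library) with 5-FU minus that with DMSO, and the difference is the W329G response minus the WT response, so a negative difference means that the change was lower in W329G cells.

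MDM2 is the E3 ubiquitin ligase that marks the transcription factor p53 for degradation and that p53 itself induces, which closes a negative feedback loop. 5-FU inhibits thymidylate synthase, and its incorporation into RNA impairs the processing of ribosomal RNA. Free ribosomal proteins are known to bind the central region of MDM2 and to hold it off p53. Stabilised p53 raises its target genes, among them CDKN1A, whose product p21 inhibits cyclin-dependent kinases, and the RB family and the DREAM complex then repress genes of the cell cycle. The question of the comparison is whether the substitution changes this response to ribosomal stress. The tryptophan of W329G was read at that codon number in the 491-codon transcript MDM2-225 of GENCODE release 29, the length in which MDM2 residues are usually numbered. The gene lies on chromosome 12 (GRCh38 68808176 to 68850686, plus strand). It is shown here with the 7 codons on either side, the tryptophan codon in capitals, because it is the codon that the edit changes.
MDM2 W329G: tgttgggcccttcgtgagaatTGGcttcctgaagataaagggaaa
A tryptophan stands at the same number in the 497-codon transcript MDM2-202 too, 6 codons further upstream, and the labels do not name the numbering. The edit itself cannot be seen in tables of counts per gene.

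Libraries held 24715999 to 56877328 counts. Mitochondrially encoded genes took from 7.14% (W329G DMSO replicate 1) to 31.8% (WT 5-FU replicate 1) of the counts joined between experiments. The filter on low counts was passed by 11 of 11 mesenchymal, 13 of 14 epithelial, 11 of 12 neural, 9 of 10 endothelial and 7 of 14 blood markers. Mesenchymal NT5E fell to 0 CPM in at least 1 library. Epithelial KRT8 ran from 31.3 to 406 CPM, neural NEFL from 31.1 to 337 CPM and blood LYZ from 0 to 130 CPM. Of the 14 blood markers, 9 stayed under 1 CPM in every library. No mesenchymal, blood, epithelial or endothelial marker had a called difference. Of 11 neural markers tested 1 did, NEFL (-0.77, edgeR adjusted p = 0.0158). Across 11341 genes with a mean of at least 5 CPM, the log2 difference between cells 1 and cells 2 in experiment 1 correlated negatively with that in experiment 2, with r of -0.75 in W329G 5-FU, -0.67 in W329G DMSO, -0.42 in WT 5-FU and -0.23 in WT DMSO libraries. These are descriptions across genes of one and the same 16 libraries. The cell numbers therefore go against each other between the experiments. The pairs are formed within an experiment and do not use that link.

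Of 16430 genes tested, 1010 (6.15%) had a difference with an edgeR adjusted p under 0.05, which is called here. The response was lower in W329G cells for 418 genes (2.54%) and higher for 592 (3.6%). The 4 W329G pairs and the 4 WT pairs did not overlap for 393 of the 418 and 558 of the 592, against 13.0% of all genes tested. The difference had the same sign in both experiments for 414 and 592 of them. It reached 1 in size on the log2 scale for 174 lower and 169 higher genes, for the higher ones a doubling relative to WT. The half-width of the 95% interval was 0.39 for the median gene, so differences below about that size could not be told from 0 for most genes.

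**Figure D1:**
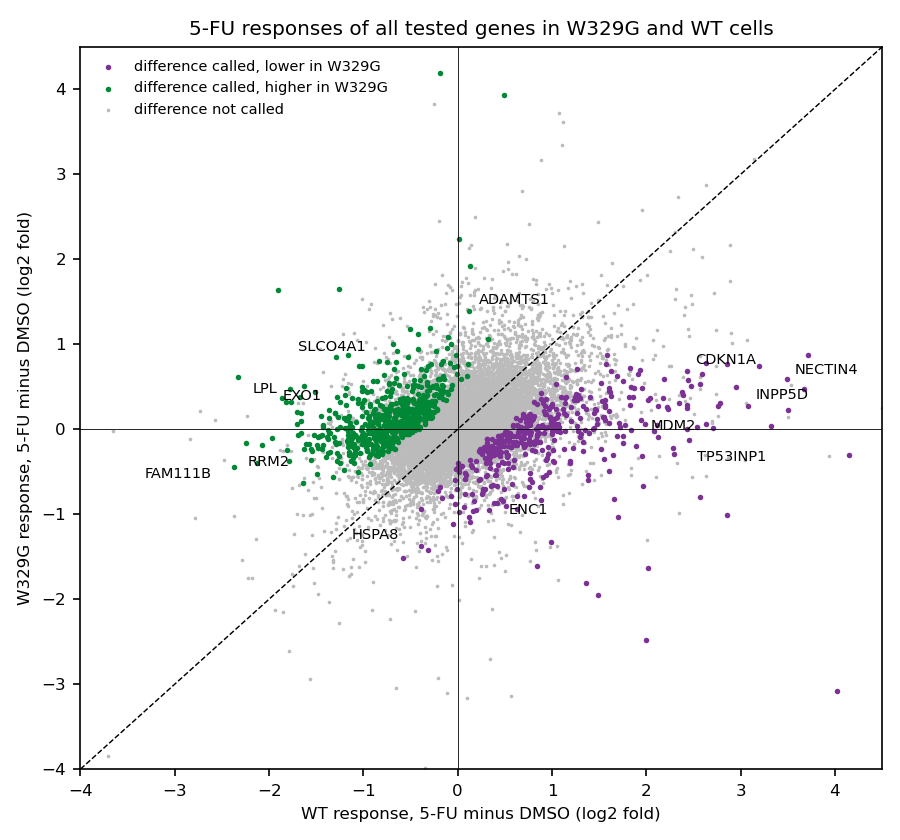
Response of each of 16430 genes to 5-FU, in W329G cells (vertical axis) and in WT cells (horizontal axis), as log2 fold change from edgeR. Genes whose difference was called lie off the dashed line of equal responses: 418 below it and 592 above it. Most of them lie along the horizontal axis, with a WT response and a W329G response near 0; 5 genes lie outside the axes.

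The size of the response over all genes was compared too. Its root mean square per pair was 0.529, 0.549, 0.478 and 0.611 in W329G pairs and 0.662, 0.639, 0.523 and 0.690 in WT pairs, in the order of replicates 1 to 4. The groups overlapped. The means were 0.542 ± 0.055 in W329G and 0.629 ± 0.073 in WT pairs (SD, n = 4 each), and their difference of -0.087 gave p = 0.114 (exact permutation test over pairs, two-sided). The smallest p that 4 pairs against 4 can give is 0.0286.

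Genes were also chosen in one experiment and read in the other, so that choice and reading share no library. Of genes with a called WT increase in experiment 1 alone, 1619 in number, the median response in experiment 2 was 0.13 in W329G and 0.46 in WT cells. For the 1773 genes called down in WT cells of experiment 1, the medians in experiment 2 were -0.18 in W329G and -0.49 in WT cells. Choosing in WT cells of experiment 2 and reading in experiment 1 gave 0.28 in W329G and 0.67 in WT cells for the 1078 genes chosen as up. It gave -0.16 in W329G and -0.56 in WT cells for the 1233 chosen as down. The W329G response was thus the smaller one in each of the 4 readings, and of the same sign as in WT cells. Since the genes were chosen by the WT response, the readings describe genes that respond in WT cells and say nothing of genes that respond in W329G cells alone.

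**Figure D2:**
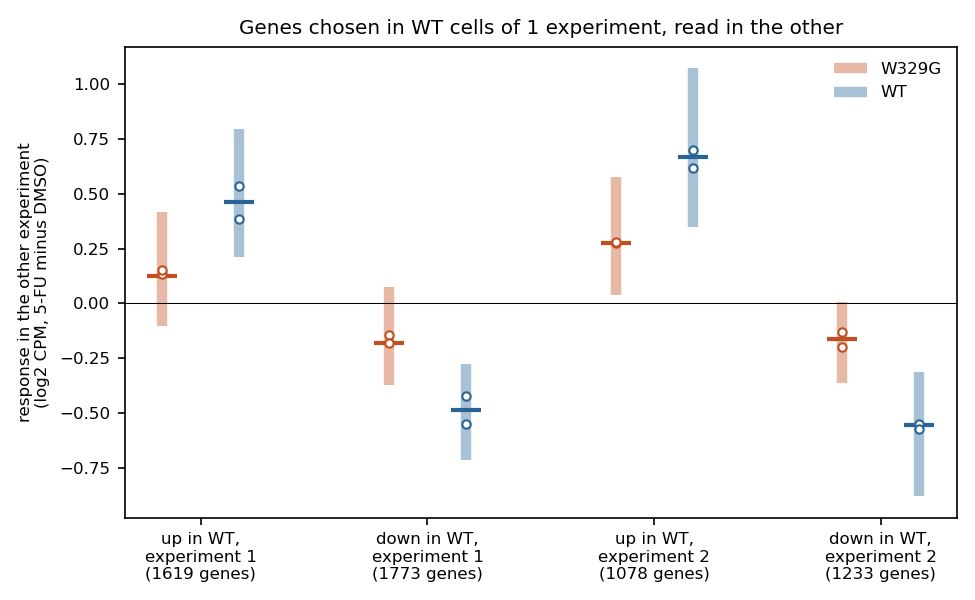
Response to 5-FU of genes chosen as changed in WT cells of 1 experiment and read in the other. Bars are the middle 50% of genes and lines the medians, of log2 fold changes from the edgeR fit of the experiment read. Circles are the median of each pair, as log2 CPM with 5-FU minus DMSO. The lines run from -0.18 to 0.28 in W329G and from -0.56 to 0.67 in WT cells.

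MDM2, the edited gene and itself a p53 target, rose in WT cells, and its W329G response was not called. Its level was 75.0, 58.1, 65.4 and 102 CPM in W329G 5-FU libraries, against 59.8, 42.7, 71.7 and 117 CPM in W329G DMSO libraries. In WT cells it was 201, 193, 286 and 236 CPM with 5-FU, against 42.6, 47.6, 74.4 and 79.0 CPM with DMSO. The 4 WT 5-FU libraries stood above the other 12, which overlapped. The response was 0.11 in W329G and 1.94 in WT cells, a 3.84-fold rise in WT, and the difference was -1.84 ± 0.18 (SE, edgeR adjusted p = 9.97e-05).

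CDKN1A kept part of its response. It was at 239, 177, 111 and 92.0 CPM in W329G 5-FU libraries, against 120, 126, 70.8 and 59.3 CPM in W329G DMSO libraries. WT cells had it at 845, 1071, 421 and 377 CPM with 5-FU, against 120, 169, 103 and 80.3 CPM with DMSO. All 8 pairs rose. The response was 0.69 in W329G cells (edgeR adjusted p = 0.005) and 2.44 in WT cells, so that a 1.62-fold rise in W329G stood against a 5.41-fold rise in WT (difference -1.74 ± 0.18, SE, edgeR adjusted p = 0.000115). The gene lies on chromosome 6 (GRCh38 36676460 to 36687339).

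**Figure D3:**
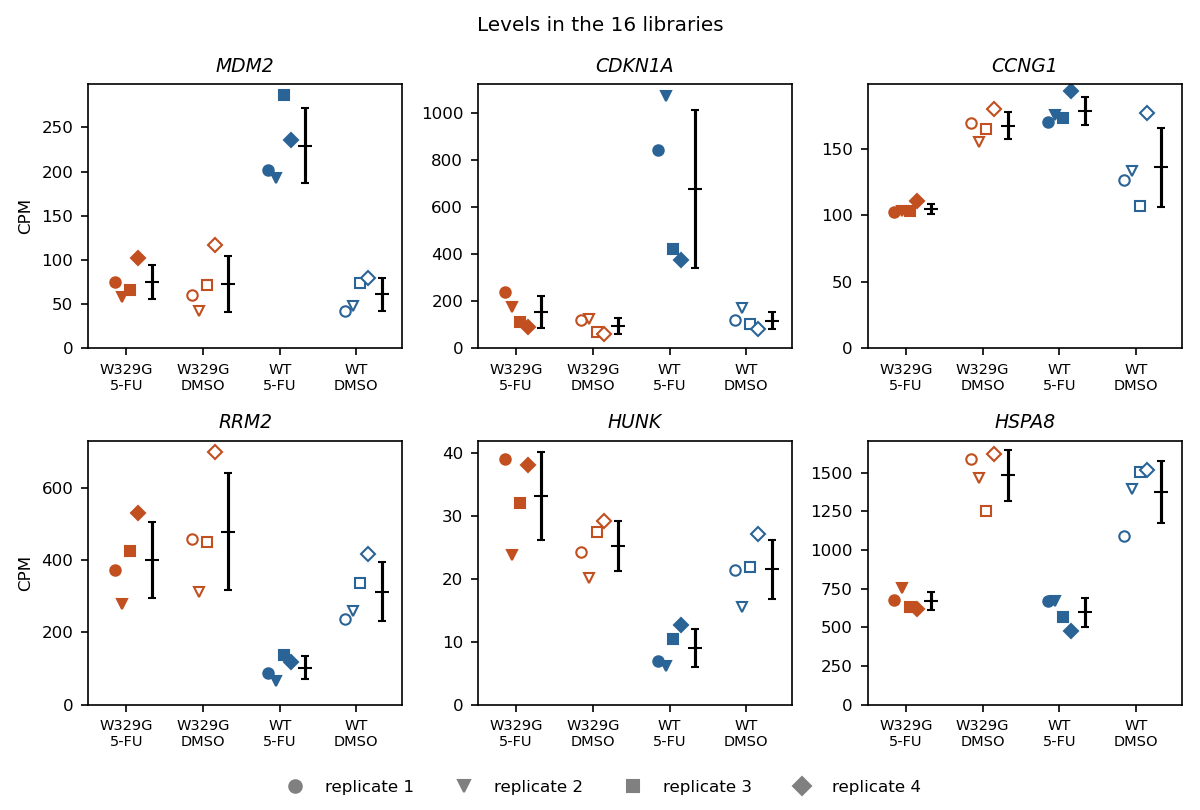
Level in CPM of 6 genes in the 16 libraries, by group, with marks for replicates 1 to 4 and bars for the mean and SD (n = 4 each). MDM2 and CDKN1A are high in WT 5-FU libraries, RRM2 and HUNK are low there, CCNG1 is low in W329G 5-FU libraries, and HSPA8 is low with 5-FU in both genotypes.

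Among 120 tested genes known to be activated by p53, 67 had a lower response in W329G cells and 0 a higher one, beside 2.54% and 3.6% of all genes. The median response of the list was 0.11 in W329G and 0.90 in WT cells, against 0.03 and 0.02 over all genes tested. In WT cells 96 of the 120 rose, where 11.6% of all genes rose and 13.1% fell. In W329G cells 17 of the 120 rose, where 5.14% of all genes rose and 5.79% fell. The mean of the list per pair was 0.24, 0.21, 0.08 and 0.08 in W329G and 1.20, 1.01, 0.89 and 0.94 in WT pairs. The count of lower members was 58 to 67 when a pair was left out, 74 in experiment 1 alone, 40 in experiment 2 alone and 35 without the pair block. These genes are defined by their rise when p53 is active and were picked with earlier results of these data known, so the direction of the list is not independent evidence.

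The feedback regulators of p53 held 8 of 15 members with a lower and 1 with a higher response, beside 2.54% and 3.6% of all genes. TP53INP1, a p53 target that promotes cell death and autophagy, responded by 0.10, 0.04, -0.30 and -0.32 in W329G pairs and by 2.54, 2.38, 2.44 and 2.45 in WT pairs. The WT values lay within 0.2 of each other, and the difference was -2.58 ± 0.14 (SE, edgeR adjusted p = 7.72e-07), the smallest adjusted p among the genes named here. PPM1D, the phosphatase that removes activating phosphates from p53, gave a difference of -0.94 ± 0.14. CCNG1, cyclin G1, which brings a phosphatase to MDM2, moved in opposite directions. It was at 103, 104, 103 and 111 CPM in W329G 5-FU libraries, against 169, 155, 165 and 180 CPM in W329G DMSO libraries. In WT cells it was at 170, 175, 173 and 194 CPM with 5-FU, against 126, 133, 107 and 177 CPM with DMSO. CCNG1 fell in W329G cells, by 0.67, and rose by 0.41 in WT cells. TP73, a p53 relative that E2F1 can activate, was the member with the higher response (1.91 ± 0.30): it responded by 0.20 in W329G cells and fell by 1.71 in WT cells. TP73 overlaps WRAP73, which holds 1.41 times its counts. Counting may not have used strand, so that reads of overlapping genes may not be told apart.

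Of 18 p53 targets in arrest and DNA repair, 11 had a lower response in W329G cells and 0 a higher one. The shares of all genes were 2.54% lower and 3.6% higher. BTG2, an antiproliferative factor, responded by 0.48, 0.23, 0.16 and 0.06 in W329G pairs and by 2.68, 2.35, 1.95 and 1.97 in WT pairs. Every WT pair lay above 1.9 and every W329G pair below 0.5 (difference -2.0 ± 0.17, SE, edgeR adjusted p = 5.19e-05). XPC and DDB2, which recognise damaged bases in nucleotide excision repair, gave -0.90 ± 0.12 and -0.73 ± 0.13. XPC overlaps LSM3, which holds 1.33 times its counts. PLK3, a stress-responsive polo-like kinase, rose in both genotypes, by 0.87 in W329G and 1.59 in WT cells, and its difference of -0.72 was called in 3 of 8 fits without a pair. GADD45A, a stress sensor, missed the threshold (-0.94 ± 0.27, edgeR adjusted p = 0.0576): its W329G pairs gave 0.68, 0.73, 0.65 and -0.27, below WT pairs of 1.91, 1.83, 0.93 and 0.91.

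Cell death targets were divided. Of 20 tested, 9 had a lower response in W329G cells, 0 a higher one, and 11 were not called. The shares of all genes were 2.54% lower and 3.6% higher. FAS, a death receptor, responded by 0.66, 0.74, -0.05 and -0.13 in W329G pairs and by 2.88, 2.39, 2.20 and 1.95 in WT pairs. In both genotypes the pairs of experiment 1 were the higher ones, and the difference of -2.04 ± 0.23 stood in each experiment (edgeR adjusted p = 0.000195 over both). BBC3, the BH3-only protein PUMA, gave 0.66, -0.02, 0.35 and 0.54 in W329G and 1.97, 1.68, 1.57 and 2.06 in WT pairs, a difference of -1.43 ± 0.17. The death receptor gene TNFRSF10B rose in both genotypes, by 0.37 in W329G and 1.30 in WT cells (difference -0.93 ± 0.15). BAX, the pore-forming member of the BCL2 family, gave -0.88 ± 0.16, and TP53I3, an oxidoreductase, -1.16 ± 0.12. AEN, a nuclease, rose in both genotypes, by 0.61 in W329G and 1.15 in WT cells, and its smaller difference of -0.54 was called in 4 of 8 fits without a pair. PMAIP1, the BH3-only protein NOXA, was not called (-0.62 ± 0.27, 95% interval -1.20 to -0.03, edgeR adjusted p = 0.228). Its pairs overlapped, from -0.52 to 0.63 in W329G and from -0.06 to 1.21 in WT cells.

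Survival genes did not move as one. BCL2L1, which codes for the anti-apoptotic BCL-XL and is on the p53 list too, rose by 1.06 in WT cells and had a response of 0.18 in W329G cells (difference -0.88 ± 0.18). BCL2, the founding anti-apoptotic gene, went the other way: 0.15 in W329G cells, a fall of 0.75 in WT cells, and a difference of 0.90 ± 0.19 (edgeR adjusted p = 0.011). Without W329G replicate 1 the adjusted p of BCL2 was 0.0514. BCL2L1 and BCL2 were the called ones of 14 survival genes (14.3%), beside 6.15% of all genes called in either direction.

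Of 17 p53 targets in metabolism, 11 had a lower response in W329G cells and 0 a higher one, beside 2.54% and 3.6% of all genes. The medians of these 17 were 0.02 in W329G and 0.94 in WT cells. SESN1, a leucine-sensing inhibitor of mTORC1, responded by 0.25, -0.27, -0.33 and 0.02 in W329G pairs and by 2.15, 1.72, 1.78 and 1.38 in WT pairs (difference -1.84 ± 0.19). FDXR, the ferredoxin reductase of mitochondria, gave -1.64 ± 0.18. TIGAR, a phosphatase that lowers fructose-2,6-bisphosphate and thereby glycolysis, responded by 0.23 in W329G and rose by 1.47 in WT cells (difference -1.24 ± 0.19, edgeR adjusted p = 0.00145). Beside it, of 31 genes of glucose uptake and glycolysis only TIGAR and the glucose transporter gene SLC2A3 were called, both lower (SLC2A3 -0.76 ± 0.17). They are 6.45% of the list, near the 6.15% of all genes called in either direction, and 0 members were higher. SLC2A3 was called in 5 of 8 fits without a pair, and the list had 1 call without W329G replicate 3 or without WT replicate 1 or 2. LDHA, lactate dehydrogenase A, gave 0.06 ± 0.14. The list median was -0.05 in W329G and -0.11 in WT cells. Glycolytic flux was not measured.

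Brakes on PI3K, AKT and mTORC1 held 7 of 14 members with a lower response, beside 2.54% of all genes. INPP5D, the lipid phosphatase SHIP1, was at 2.88, 4.44, 2.35 and 2.07 CPM in W329G 5-FU libraries, against 2.37, 3.48, 2.69 and 1.22 CPM with DMSO. WT cells had it at 27.6, 12.3, 18.8 and 16.5 CPM with 5-FU, against 2.49, 1.99, 2.38 and 1.72 CPM with DMSO. All 4 WT 5-FU libraries stood above the other 12, an 8.46-fold rise against 1.21-fold in W329G cells (difference -2.80 ± 0.25, SE, edgeR adjusted p = 5.19e-05). PIK3IP1, an inhibitor of the PI3K catalytic subunit, responded by -0.57, 0.00, -0.30 and -0.41 in W329G and by 1.73, 1.95, 1.92 and 2.19 in WT pairs (-2.27 ± 0.17). DDIT4, an inhibitor of mTORC1, fell in W329G cells, by 0.83, and rose by 0.89 in WT cells. Its W329G pairs ran from -1.28 to -0.18 and its WT pairs from 0.65 to 1.02. SESN2 responded by 0.02 in W329G and 1.72 in WT cells (-1.70 ± 0.27).

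DDIT4, SESN2 and NUPR1 were also the called ones of 34 genes of the ATF4 amino acid stress response. They are 8.82% of that list, near the 6.15% of all genes called in either direction. Both p53 and ATF4 are known to activate SESN2. The other members were not called, and the medians of the list were -0.38 in W329G and -0.66 in WT cells. NUPR1, a stress-induced chromatin protein, fell by 0.88 in W329G cells, with a WT response of -0.03, and its pairs overlapped. NUPR1 was called in 2 of 8 fits without a pair.

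Of 17 secreted factors linked to p53, 4 had a lower response in W329G cells, beside 2.54% of all genes. The medians of the list were 0.66 in W329G and 0.73 in WT cells. In W329G cells 6 of the 17 rose, and in WT cells 11. The pair means ran from 0.23 to 0.53 in W329G and from 0.57 to 1.0 in WT cells. GDF15, a stress cytokine, responded by 0.93, 0.71, 0.42 and 0.96 in W329G and by 2.71, 3.22, 2.45 and 3.01 in WT pairs, so it rose in both (difference -2.09 ± 0.22, SE, edgeR adjusted p = 0.000115). Its level under DMSO ran from 0.264 to 8.96 CPM in W329G and from 0.372 to 7.98 CPM in WT libraries, and without the pair block its adjusted p was 0.33.

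The largest lower differences among genes with a mean of at least 5 CPM over the 16 libraries included several outside the p53 list. NECTIN4, TSPAN11, SERPINB5 and SUGCT reached that mean through the WT 5-FU libraries, with means there of 32.8, 28.2, 14.5 and 13.2 CPM. In the other groups their means ran from 1.39 (SERPINB5, W329G DMSO) to 3.25 CPM (TSPAN11, W329G 5-FU). Their W329G responses thus rest on low levels, as does that of INPP5D, which passed in the same way. NECTIN4, a cell adhesion molecule, responded by 0.19, 0.85, 0.39 and 1.14 in W329G and by 4.46, 3.31, 2.82 and 3.35 in WT pairs (difference -2.90 ± 0.33). TSPAN11, a tetraspanin, rose in both genotypes, by 0.75 in W329G and 3.19 in WT cells. SERPINB5, the serpin maspin, responded by 0.29 in W329G and 2.43 in WT cells, and SUGCT, a mitochondrial CoA-transferase, by -0.02 in W329G and 2.08 in WT cells. GRIN2C, an NMDA receptor subunit, gave -1.95 ± 0.32. ATOSA gave -1.95 ± 0.16, with WT pairs between 1.55 and 1.74 and W329G pairs between -0.63 and -0.07. SERPINB5 and GRIN2C were not called without the pair block (edgeR adjusted p = 0.732 and 0.237). In total 325 of the 418 lower and 486 of the 592 higher genes were in none of the lists.

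One of these genes carries a p53 response element at its RefSeq start. The 20-base element, made of a pair of decamers in direct contact (purines, C, A or T, A or T, G, pyrimidines), was searched on both strands from 250 bases before to 50 after the start of each gene in RefSeq promoters of GRCh38.p14. It was found in 1 of 12285 tested genes with a promoter in that table, PTCHD4, a patched-related membrane protein. It is shown because it is the single match, with the element in capitals (chr6:48111188-48111227, minus strand). PTCHD4 was chosen after its values were seen.
PTCHD4: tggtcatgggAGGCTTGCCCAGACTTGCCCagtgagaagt
The element begins 20 bases before the RefSeq start. In the coordinates of experiment 1 PTCHD4 spans 47878028 to 48068689, so the element lies upstream of the gene as counted there. PTCHD4 responded by 0.39, 0.06, -0.06 and -0.30 in W329G pairs and by 1.55, 1.51, 1.59 and 1.04 in WT pairs, a difference of -1.43 ± 0.20 (SE, edgeR adjusted p = 0.000854). No match in the other promoters says only that this 20-base form is not in these 300 bases; p53 elements commonly lie further away or with a spacer, which the search leaves out.

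**Figure D4:**
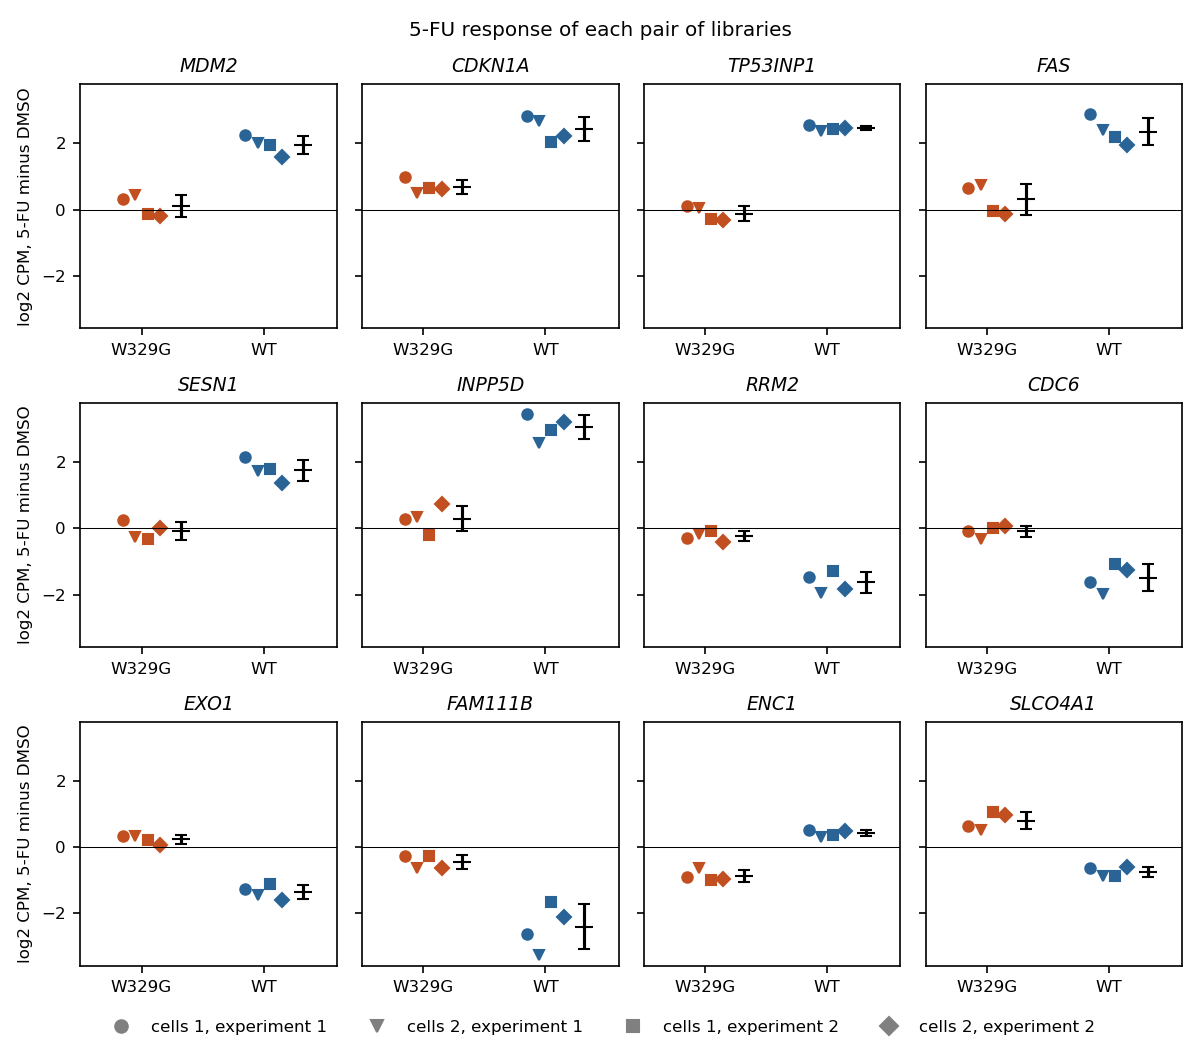
Response of each pair, as log2 CPM with 5-FU minus DMSO, for 12 genes in W329G and WT cells; marks give the cells and the experiment, bars the mean and SD (n = 4 pairs). In all 12 genes the W329G pairs and the WT pairs are apart, and for ENC1 and SLCO4A1 they lie on opposite sides of 0.

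Most genes of DNA replication had a higher response in W329G cells. Of 57 tested genes of the G1/S transition and replication, 52 had a higher response in W329G cells and 0 a lower one. The shares of all genes were 3.6% higher and 2.54% lower. The differences of all 57 members were above 0. All 57 fell in WT cells, whereas 3 fell in W329G cells. The medians were -0.08 in W329G and -1.15 in WT cells. The mean of the list was -0.08, -0.24, 0.01 and -0.01 in W329G pairs and -1.38, -1.41, -0.89 and -1.04 in WT pairs, with a smaller WT fall in experiment 2. Between 46 and 54 members were called when a pair was left out, 34 in experiment 2 alone and 38 without the pair block.

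RRM2, the small subunit of ribonucleotide reductase, which makes deoxyribonucleotides, was at 372, 278, 425 and 531 CPM in W329G 5-FU libraries, against 458, 311, 450 and 700 CPM with DMSO. In WT cells it was at 86.7, 66.6, 137 and 118 CPM with 5-FU, against 238, 259, 337 and 417 CPM with DMSO. The WT 5-FU libraries were below all 12 others. RRM2 had a response of -0.23 in W329G cells and fell by 1.63 in WT cells, a difference of 1.40 ± 0.16 (SE, edgeR adjusted p = 0.000186). CDC6, which loads the replicative helicase, responded by -0.09, -0.33, 0.00 and 0.07 in W329G and by -1.61, -1.99, -1.07 and -1.27 in WT pairs (1.39 ± 0.18). The helicase subunit gene MCM3 gave 1.11 ± 0.17. EXO1, an exonuclease of mismatch repair and resection, gave 1.59 ± 0.14, with W329G pairs from 0.05 to 0.32 and WT pairs from -1.60 to -1.11. FAM111B, a protease that marks S phase, fell by 2.37 in WT cells and had a response of -0.45 in W329G cells. The transcription factor genes E2F1 and E2F2, which drive this programme, gave 1.45 ± 0.28 and 1.76 ± 0.28, and CCNE2, cyclin E2, 1.77 ± 0.26. CCNE2 overlaps INTS8, which holds 2.9 times its counts.

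The promoters of this list share E2F letters. Sites were counted as TTTGGCGC, TTTGCCGC, TTTCGCGC or TTTCCCGC on either strand in the same 300-base windows. They stood in 26 of 46 G1/S and replication promoters (56.5%), in 3 of 48 G2 and mitosis promoters (6.25%), in 7 of 101 p53 target promoters (6.93%) and in 609 of 12285 promoters of tested genes (4.96%). The cell cycle genes homology region (CHR, TTTGAA or TTCGAA on either strand), which the DREAM complex binds, stood in 35 of 48 G2 and mitosis promoters (72.9%), 3 of 46 G1/S promoters (6.52%) and 11.6% of all. In 2 promoters of tested genes an E2F site and a CHR match lay within 8 bases of each other. Promoters were matched for 80.7% of the G1/S list, 85.7% of the G2 and mitosis list and 84.2% of the p53 list. They were matched for under 80% of the called genes (77.8% of lower and 79.9% of higher ones), so a check over the called genes is void. The shares over all genes rest on the 74.8% of tested genes that were matched. The 5 G1/S members with the smallest p that have a site, and the 3 G2 and mitosis members of highest mean CPM that have a CHR within 100 bases before the start or in the 50 after it, are shown with 10 bases on either side where the window allows, motif in capitals, on the strand of the gene. Positions are from RefSeq, GRCh38.p14.
EXO1 (chr1:241848198-241848225, plus strand): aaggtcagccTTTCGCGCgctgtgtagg
CLSPN (chr1:35769966-35769993, minus strand): ctctggctggGCGGGAAAgcaagaacag
CDC25A (chr3:48188444-48188471, minus strand): gtggattccgTTTGGCGCcaactaggaa
CDC6 (chr17:40287876-40287903, plus strand): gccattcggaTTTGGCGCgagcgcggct
GINS2 (chr16:85688968-85688995, minus strand): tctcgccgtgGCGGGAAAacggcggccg
MKI67 (chr10:128126455-128126480, minus strand): agcgccagaaTTTGAAtcttcgtttt
CENPF (chr1:214603225-214603244, plus strand): ctgcgggcagTTTGAAttag
SMC4 (chr3:160399565-160399590, plus strand): cgcactttttTTCAAAttagtggatc
The E2F genes shown were chosen by their p and the CHR genes by their level, so their differences are not compared. A match is a description of letters, not a measured binding site.

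Most G2 and mitosis genes fell in both genotypes. Of 56, 35 fell in W329G and 45 in WT cells, with medians of -0.42 in W329G and -0.55 in WT cells. The difference was called for 5 of the 56, NCAPH, KIFC1, FOXM1, AURKB and SMC2, all higher in W329G, beside 3.6% of all genes. Without the pair block, and in experiment 2 alone, it was called for 0 of them. DESeq2 called 11 higher and 1 lower, and edgeR called 8 higher without WT replicate 3 or without W329G replicate 4. CCNB1, cyclin B1, fell by 0.64 in W329G cells and had a WT response of -0.20 (difference -0.44 ± 0.20, not called). PLK1, the mitotic polo-like kinase, fell by 0.59 in W329G and by 0.46 in WT cells. CDK1, the kinase that cyclin B1 activates, gave 0.41 ± 0.17, not called. MKI67, the proliferation marker Ki-67, gave 0.65 ± 0.18 (edgeR adjusted p = 0.051), and its W329G pairs of 0.51, -0.04, -0.28 and -0.44 lay above WT pairs of -0.65, -0.83, -0.71 and -0.66. A p that misses the threshold does not show equal responses. In bulk libraries fewer cells in a phase and less RNA per cell cannot be told apart.

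DNA repair genes held 26 of 50 members with a higher response and 0 with a lower one, beside 3.6% and 2.54% of all genes. The medians of the list were -0.06 in W329G and -0.77 in WT cells. BRCA1, which acts in homologous recombination, responded by 0.15, -0.08, -0.19 and -0.22 in W329G and by -1.48, -1.51, -0.99 and -1.30 in WT pairs (1.23 ± 0.14, edgeR adjusted p = 0.000242). FANCD2, of the Fanconi pathway, gave 1.11 ± 0.17. The count was 19 to 26 when a pair was left out, 9 in experiment 2 alone and 12 without the pair block. Of 21 genes of the DREAM and RB pathway, 5 were higher, MYBL2, RBL1, CDKN2C, LIN54 and TFDP1, beside 3.6% of all genes. That count was 3 without W329G replicate 1 or without WT replicate 1 or 2, 2 in experiment 2 alone and 1 without the pair block.

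Among 39 genes of fluoropyrimidine and pyrimidine metabolism, 11 had a higher response and 1, the p53 target RRM2B, a lower one. The shares of all genes were 3.6% higher and 2.54% lower. The number of higher members of the list was 5 without W329G replicate 4 or without WT replicate 2. It was 6 without W329G replicate 1 or 3, and 7 without WT replicate 1. TYMS, the thymidylate synthase that 5-FU blocks, was not called (0.26 ± 0.13, 95% interval -0.02 to 0.53). Its W329G pairs gave -0.14, -0.24, -0.04 and -0.06 and its WT pairs -0.44, -0.37, -0.15 and -0.55, which overlapped. RRM1, the large reductase subunit, gave 0.71 ± 0.13. TK1, thymidine kinase, gave 0.91 ± 0.22 and UNG, the glycosylase that removes uracil from DNA, 0.98 ± 0.22. They were called in 3 and 5 of 8 fits without a pair.

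Outside replication, the largest higher differences included genes that rose in W329G cells while they fell in WT cells. C1QTNF2, a secreted C1q-related protein, responded by 0.56, 0.92, 0.85 and 1.18 in W329G and by -0.98, -1.43, -1.23 and -0.96 in WT pairs (2.04 ± 0.20, edgeR adjusted p = 9.94e-05). HUNK, a kinase of the AMPK-related family, was at 39.0, 23.8, 32.2 and 38.1 CPM in W329G 5-FU libraries, against 24.4, 20.2, 27.5 and 29.2 CPM with DMSO. WT cells had it at 6.86, 6.16, 10.4 and 12.6 CPM with 5-FU, against 21.4, 15.5, 21.9 and 27.2 CPM with DMSO. It rose in W329G cells, by 0.38, and fell by 1.27 in WT cells. SPSB4, a SOCS-box adaptor, fell by 2.24 in WT cells with a W329G response of -0.17, and TUBA3C, an alpha-tubulin with near-identical copies that counting may not separate, fell by 1.66 in WT cells with a W329G response of -0.05. LPL, lipoprotein lipase, had the largest called higher difference among genes with at least 5 CPM and pairs apart (2.10 ± 0.51), with W329G pairs of -0.34, 0.06, 2.62 and 2.71. Its mean reached 5 CPM through experiment 1. In experiment 2 it was at 0.939 and 0.314 CPM in W329G 5-FU libraries, against 0.106 and 0 CPM in W329G DMSO libraries, so the last 2 pair values rest on levels near 0. LPL was called in 5 of 8 fits without a pair.

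A called difference was not always a smaller W329G response. In 76 genes W329G cells showed a called increase, and in 62 a called decrease, with a called difference and a larger fitted size than the WT change. The sizes, sign left aside, were not tested against each other. SLCO4A1, an organic anion transporter, responded by 0.65, 0.52, 1.06 and 0.96 in W329G and by -0.62, -0.86, -0.88 and -0.61 in WT pairs (1.55 ± 0.16). TNFRSF8, the receptor CD30, rose by 0.93 in W329G cells and fell by 0.64 in WT cells. Its mean reached 5 CPM through the W329G 5-FU libraries, at 9.48 CPM. The means were 4.88 CPM in W329G DMSO, 2.85 CPM in WT 5-FU and 4.96 CPM in WT DMSO libraries. The WT pairs gave -0.39, -0.72, -1.04 and -0.01. ADAMTS1, a secreted protease, rose by 1.39 in W329G cells with a WT response of 0.12, and CNN1, the actin-binding calponin 1, rose by 1.09 with a WT response of -0.11. ARID5A, an RNA-binding protein, and KCNK5, a potassium channel, rose by 0.96 and 0.52 in W329G cells, with WT responses of -0.11 and -0.47. ADAMTS1, CNN1, ARID5A, KCNK5 and TNFRSF8 were not called without the pair block.

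Among the decreases, ENC1, an actin-binding kelch protein, responded by -0.90, -0.62, -1.0 and -0.96 in W329G and by 0.53, 0.31, 0.38 and 0.47 in WT pairs (difference -1.29 ± 0.13, SE, edgeR adjusted p = 0.000102). The genotypes moved in opposite directions in every pair. CCNG2, the atypical cyclin G2, fell by 0.82 in W329G cells and rose by 0.46 in WT cells. KLHL24, a ubiquitin ligase adaptor, fell by 0.91 and WIPI1, a protein of the forming autophagosome, by 0.54 in W329G cells, while they rose by 0.52 and 0.41 in WT cells. PDCD4, an inhibitor of the helicase eIF4A, fell by 0.84 in W329G cells with a WT response of 0.17. Under DMSO the level of ENC1 was 283, 200, 143 and 323 CPM in W329G and 671, 199, 170 and 513 CPM in WT libraries, and without the pair block its adjusted p was 0.622.

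Other changes were shared. In 879 genes both genotypes had a called response in the same direction (375 up, 504 down), and in 62 in opposite directions. The W329G and WT responses are each a term of the difference and rest on the same libraries, so these counts add no test to it. For 403 genes with a called response of the same sign in both (116 up, 287 down), the 95% interval of the difference lay within 0.5 of 0. HSPA8, the constitutive HSP70 chaperone, was at 678, 753, 629 and 620 CPM in W329G 5-FU libraries, against 1590, 1465, 1252 and 1617 CPM with DMSO. In WT cells it was at 671, 672, 565 and 478 CPM with 5-FU, against 1090, 1391, 1501 and 1519 CPM with DMSO. All 8 pairs fell, with a fitted fall of 1.14 in W329G and 1.21 in WT cells (difference 0.07 ± 0.20, 95% interval -0.36 to 0.49). IDH2, mitochondrial isocitrate dehydrogenase, fell by 1.20 in W329G and 1.34 in WT cells. GAS6, a ligand of the TAM receptors, fell by 0.83 in W329G and 0.87 in WT cells, and XBP1, a factor of the unfolded protein response, by 0.90 in W329G and 0.79 in WT cells. HBEGF, a ligand of the EGF receptor, rose by 0.80 in W329G and 0.82 in WT cells.

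Other lists are given beside 2.54% lower and 3.6% higher among all genes. The lower share was 1.27% of cytosolic ribosomal protein, 20.7% of histone, 10.8% of autophagy and lysosome and 14.8% of keratin and squamous genes. The higher share was 7.81% of ribosome biogenesis and 6.90% of cholesterol synthesis genes. Most of these counts changed when a pair was left out. Of 79 cytosolic ribosomal protein genes, 73 had differences below 0, and RPS19 was called (-0.60 ± 0.15), while 18 fell in W329G and 5 in WT cells. Without W329G replicate 2 the count was 7, and it was 0 without W329G replicate 1 or 3 or without WT replicate 1, 2 or 3. The mean of this list was -0.60 in W329G replicate 1 and between -0.30 and -0.01 in the other 7 pairs. RPS27L, a ribosomal protein paralog and p53 target, responded by 0.11 in W329G and 1.56 in WT cells (-1.44 ± 0.19). Of 29 histone genes, 6 were lower, but 1 without W329G replicate 1 or without WT replicate 3, and 3 without W329G replicate 2 or 3 or without WT replicate 2 or 4. The mean over the list was -0.96 in W329G replicate 1 and -0.37, -0.15 and 0.05 in the other W329G pairs. Histone RNAs mostly lack poly-A tails, and their part in a poly-A library was not tested. H2BC21, a histone gene that also makes a poly-A RNA, fell by 1.09 in W329G cells with a WT response of 0.14. Of 64 ribosome biogenesis genes 5 were higher, and of 29 genes of cholesterol synthesis 2, DHCR7 and EBP. Ribosome biogenesis had 2 without W329G replicate 1, 3 or 4 or without WT replicate 1 or 2, and 3 without WT replicate 3 or 4. Cholesterol synthesis had 1 without W329G replicate 1 or 3 or without WT replicate 2. Both had 0 without the pair block. Of 37 autophagy and lysosome genes 4 were lower, among them WIPI1. Of 27 keratins and squamous genes 4 were lower, among them S100A2, a calcium-binding p53 target (-0.75 ± 0.18), which was called in 4 of 8 fits without a pair. The count of this list was 1 without W329G replicate 1 or without WT replicate 1 or 2, 2 without W329G replicate 2 or 3 or without WT replicate 3, and 0 without the pair block or in experiment 2 alone.

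The lists of NF-kB genes (28), NRF2 genes (24), the unfolded protein and heat shock response (28), nuclear oxidative phosphorylation genes (41) and mitochondrially encoded genes (13) had 0 called members by edgeR. The 13 mitochondrially encoded genes all had differences below 0, with a median of -0.17. Their share of counts changed by 0.83, 4.09, 6.02 and -3.78 percentage points in W329G pairs and by 7.21, 4.00, 2.05 and 4.20 in WT pairs (means 1.79 ± 4.28 and 4.36 ± 2.13, SD, n = 4 each, exact two-sided permutation p = 0.371). Leaving these genes out of the libraries gave 996 called differences in place of 1010.

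**Figure D5:**
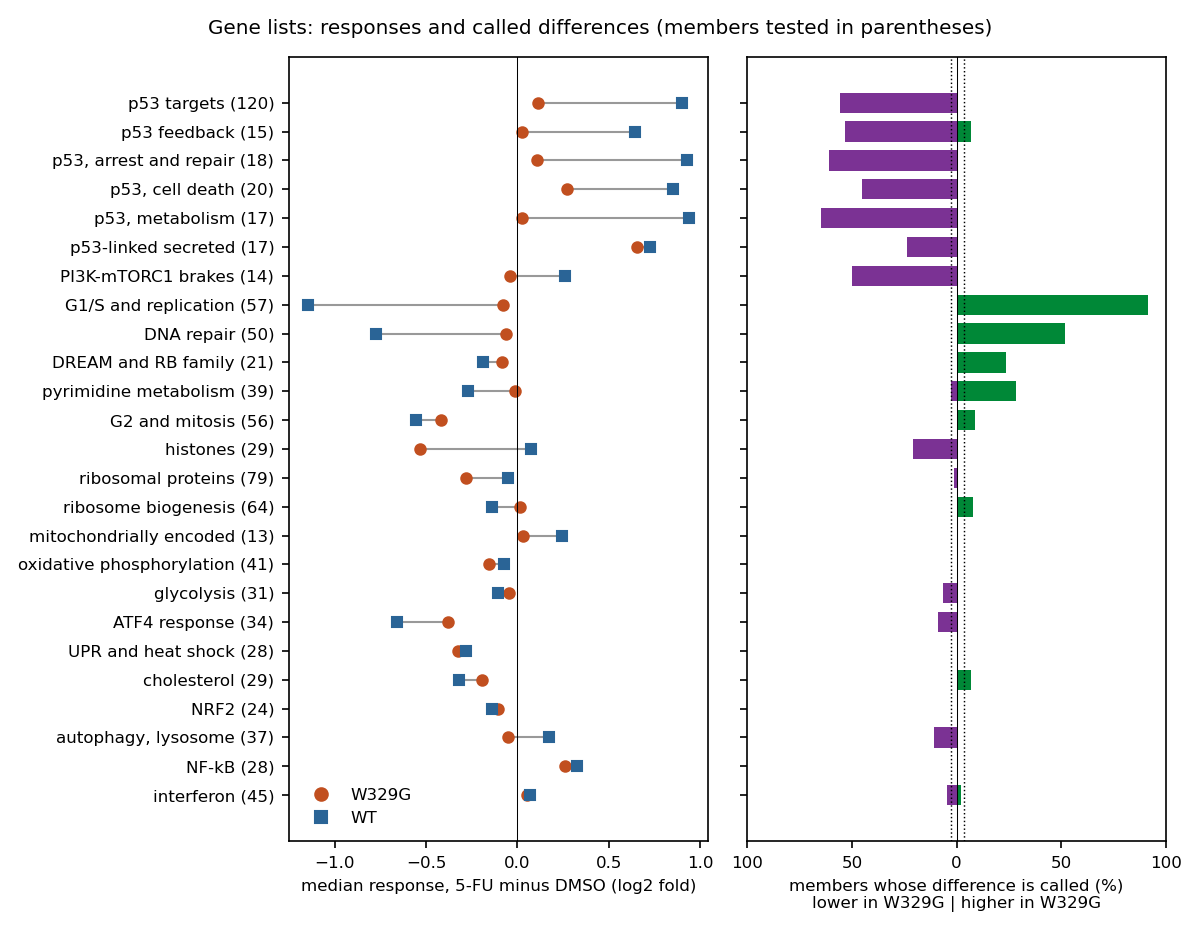
Left, median response of each gene list to 5-FU in W329G (circles) and WT cells (squares), as log2 fold change. Right, percent of tested members whose difference was called lower or higher in W329G; dotted lines mark 2.54% and 3.6% of all genes. The p53 target list stands at 0.11 in W329G and 0.90 in WT cells and the G1/S list at -0.08 and -1.15, while the G2 and mitosis list is below 0 in both, at -0.42 and -0.55.

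The difference itself was compared between the experiments. No gene of 16430 was called by edgeR for a difference that changed from one experiment to the other, and 1024 had an unadjusted p under 0.05. Among genes with a mean of at least 5 CPM, clone names left out, FHL1, a LIM protein of muscle, stood first by p. Its W329G pairs gave -0.39, -0.31, -1.56 and -0.84 and its WT pairs -0.13, -0.02, 0.60 and 0.63, so that its difference was -0.28 in experiment 1 and -1.81 in experiment 2. MMP9, a matrix protease, came second, with W329G pairs of 0.28, -0.19, 0.37 and 0.44 and WT pairs of 1.27, 0.80, -0.48 and 0.04. Experiment 1 alone gave 932 called differences and experiment 2 alone 375, each from 4 pairs.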

How the data were processed

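Per the labels' protocols, libraries were prepared with a TruSeq kit after poly-A selection. Raw counts per gene were deposited as 1 table per library. Per the file headers, experiment 1 lists Ensembl genes with exon coordinates and experiment 2 gene symbols. For the aligner, counter and strand setting, nothing is given in the sources used here. Per the submitters' processing notes the build is hg19, but 96.3% of 56898 genes in the experiment 1 tables have the GRCh38 start and end of GENCODE release 29; coordinates are theirs. All 26 values of 7 digits in experiment 2 end in 0. Symbols joined 28685 genes 1 to 1 (242 through an older symbol), which held 97.9% to 98.9% of each library's counts.

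Counts were tested with edgeR 4.0.16 in R 4.3.3 (TMM, filterByExpr by group, quasi-likelihood F test, Benjamini-Hochberg adjustment, threshold 0.05) on 16430 genes, with the pair as block and a 5-FU term per genotype. SE is the absolute log2 change over the root of F. Pair values are log2 CPM (prior count 2). Cell numbers pair DMSO and 5-FU libraries of the same cells and experiment: differences between cells 1 and 2 correlated between treatments, with r between 0.487 and 0.708 in the 4 genotype-experiment sets. The 2 libraries of a group and experiment differed by much more than sampling noise (chi-square over its degrees of freedom 63.6 to 195). Nothing says that experiments used separate cultures, so the spread behind the p-values is that of these libraries and may be technical; at these depths counting error is small at 5 CPM or more. Fits were tested on simulated data.

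Members and lists were chosen with earlier results of these data known. Genes named are MDM2 and CDKN1A, the 12 largest differences per direction (adjusted p under 0.05, at least 5 CPM, pairs apart, one sign in both experiments), up to 8 per direction with a larger W329G response or a shared one, and up to 4 called members of a list per direction, though not all are printed, some because they are not reported here. PPM1D, GADD45A, PLK3, XPC, DDB2, TNFRSF10B, BAX, AEN, PMAIP1, RPS27L, E2F1, MCM3, CDC6, CDC25A, CLSPN, GINS2, TYMS, TK1, UNG, FANCD2, MKI67, CENPF, SMC4, CCNB1, PLK1, CDK1, LDHA, FHL1 and MMP9 were added with their values in view. Alternatives were no pair block, a 5-FU term per experiment, each experiment alone, DESeq2 1.42.0 size factors and test, limma 3.58.1, no filter, each pair left out, no mitochondrially encoded genes, sums per line, and other bounds.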

Additional observations from a re-analysis of the deposited data

Results flagged for a closer look

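Among 188 groups of 4 pairs, 1 per gene named and genotype, 10 had a pair set apart from the other 3, close to the 1 in 20 that chance flags. In W329G cells, the response of replicate 4 was low for GADD45A (-0.2683) and BCL2 (-0.1657), and that of replicate 2 was low for KLHL24 (-1.167), WIPI1 (-0.6444) and CDC25A (-0.1288). In WT cells, replicate 3 was low for PLK3 (1.072) and high for RRM1 (-0.6165), replicate 1 was high for XPC (0.7921), replicate 4 was low for PTCHD4 (1.041), and replicate 2 was low for DHCR7 (-0.9324). In these 10 groups the W329G and WT pairs of the gene still did not overlap.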

How the results depend on the processing

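The pair block and the number of pairs set the counts. In place of 1010 called differences there were 198 with no pair block, 375 in experiment 2 alone and 343 at an absolute log2 difference of at least 1. Leaving out 1 pair gave 603 to 962, with 603 without WT replicate 2, 618 without W329G replicate 1 and 612 without W329G replicate 3. The cause was not tested beyond the smaller number of pairs. DESeq2 called 1411, limma 1026 and no filter 1198, and a 5-FU term per experiment gave 1483. Sums per line by label gave 699, and sums with those numbers swapped for experiment 2 gave 1276, a setting chosen after seeing the data. With no pair block the WT response was called for 1443 genes in place of 4068 and the W329G response for 129 in place of 1795; without 1 pair the W329G count ran from 710 to 2127. Shared responses numbered 36 with the interval within 0.3 and 802 within 1. With a WT response of at least 1 besides, the median W329G response of genes up in WT was 0.25 for those chosen in experiment 1 and 0.43 in experiment 2. The list median turned to 0.054 for keratins and to 0.10 for matrix genes in experiment 2 alone, and to 0.17 for neural markers in experiment 1 alone. Medians nearer 0 turned too, in experiment 1 alone for glycolysis (-0.12), ATF4 (-0.04) and NF-kB genes (-0.03), and in experiment 2 alone for NF-kB (-0.14), heat shock (0.04), AP-1 (0.21) and survival genes (-0.02). Of the genes named, 32 lost their call with no pair block, 17 in experiment 2 alone and between 4 and 10 without a pair, and none of those called turned its sign in these fits. CENPF, GAS6, HBEGF, HSPA8, IDH2, LDHA, MMP9, PLK1 and XBP1, none of them called, turned in at least 1 fit. With 2 sets of cells per genotype, clone and genotype cannot be told apart.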
